A study of Mus musculus with 19 samples.

Results

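The genes of the proteasome were examined in retinal microglia after experimental choroidal neovascularization (CNV). They were the protein-coding genes whose symbol begins with Psm, followed by one of the letters a to g and a digit, without *Psmb8* and *Psmb9*, and 47 of the 27299 genes in the table met this rule. By their known roles, 16 were subunits of the 20S core (8 alpha and 8 beta), 17 were subunits of the 19S cap (9 of the base and 8 of the lid), 5 were activators, 1 was an inhibitor, 7 were assembly chaperones, and 1 (*Psmc3ip*) shares the name pattern but is a recombination factor. The bulk RNA-seq data held 6 samples from unlasered control mice and 6 samples taken on day 3 after 6 laser burns per eye (CNV d3). All mice were 8 weeks old and on the C57BL/6J background. The labels name C57BL/6J mice and CD45+ cells, while the methods name Cx3cr1 GFP/+ mice, in which 1 copy of the fractalkine receptor gene is replaced by GFP, and cells low for CD45. In both groups only the central retina was used, and the cells were sorted as CD11b+, CX3CR1+, Ly6C- and Ly6G-. The sources used here do not state how many animals or eyes gave 1 sample, so the p-values measure the spread between these samples.

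The proteasome degrades proteins that carry a chain of ubiquitin. The core is a barrel of stacked rings in which alpha subunits form the gate and beta subunits carry the proteolytic sites. The cap sits on the gate, where its base of ATPases unfolds the substrate and its lid removes the ubiquitin. Activators open the gate without ubiquitin or ATP, and *Psme1* and *Psme2*, which form the PA28 alpha beta ring, are known as interferon-induced genes of antigen presentation. In inflamed tissue, beta subunits of the core can be exchanged for those of the immunoproteasome, of which *Psmb10* replaces *Psmb7*.

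The sequences just before the start of genes that differed between the groups are shown here, because 4 of the 5 activators were called higher and sequence motifs near their starts were looked up. They came from RefSeq (GRCm38.p6), which had an entry for 39 of the 47 genes. *Psmb1* and *Psmd7* were not among them. Bases inside the gene as annotated by GENCODE were left out, and for *Psme1* this left none. Capitals mark matches on either strand to TGACNNNGC (core of the antioxidant response element), the core of the interferon-stimulated response element (a GAAA repeat, spaced by 2 bases of any kind), CCGGAAG (ETS core), TTCNNNGAA (gamma-activated sequence), GGGCGG (GC box) and CCAAT. *Psme2* has 2 starts in RefSeq, and the longer upstream stretch (chr14:55591114-55591351, minus strand) is printed. The stretch of *Psme3* lies at chr11:101315963-101316212 (plus strand), that of *Psme4* at chr11:30771525-30771725 (plus strand), that of *Psmd8* at chr7:29180702-29180923 (minus strand) and that of *Psma1* at chr7:114276119-114276366 (minus strand).
Psme2: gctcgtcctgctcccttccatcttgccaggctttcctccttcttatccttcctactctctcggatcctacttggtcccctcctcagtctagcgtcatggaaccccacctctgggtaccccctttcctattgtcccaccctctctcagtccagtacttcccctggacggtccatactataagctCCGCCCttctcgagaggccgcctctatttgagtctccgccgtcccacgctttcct
Psme3: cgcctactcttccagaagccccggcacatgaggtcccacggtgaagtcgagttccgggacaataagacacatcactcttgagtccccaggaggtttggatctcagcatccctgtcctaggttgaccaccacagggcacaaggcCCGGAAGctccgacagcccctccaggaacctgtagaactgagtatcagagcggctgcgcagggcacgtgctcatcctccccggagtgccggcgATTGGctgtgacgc
Psme4: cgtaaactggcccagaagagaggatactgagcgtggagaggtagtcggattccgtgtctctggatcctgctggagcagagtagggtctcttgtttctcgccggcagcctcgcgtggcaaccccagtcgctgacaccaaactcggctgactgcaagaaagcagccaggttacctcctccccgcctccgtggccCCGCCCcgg
Psmd8: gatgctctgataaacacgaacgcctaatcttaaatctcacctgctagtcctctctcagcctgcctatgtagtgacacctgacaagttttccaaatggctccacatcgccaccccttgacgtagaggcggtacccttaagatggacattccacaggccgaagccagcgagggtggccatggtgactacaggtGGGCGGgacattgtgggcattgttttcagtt
Psma1: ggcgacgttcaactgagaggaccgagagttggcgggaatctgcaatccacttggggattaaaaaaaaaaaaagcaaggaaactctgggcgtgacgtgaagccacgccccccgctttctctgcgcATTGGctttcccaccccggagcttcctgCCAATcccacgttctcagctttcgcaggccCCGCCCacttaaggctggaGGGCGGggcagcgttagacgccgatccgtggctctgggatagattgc

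None of these 5 stretches held the antioxidant or the interferon element. The GC box was found in those of *Psme2*, *Psme4*, *Psmd8* and *Psma1*, and the ETS core in that of *Psme3*. Over the full 300 bases per start, the interferon element was present in 5 of the 39 genes (12.8%: *Psmb3*, *Psmd4*, *Psmd9*, *Psme1* and *Psmg4*) and in 3.44% of all 32851 promoters. The antioxidant element was present in 6 of 39 (15.4%: *Psmb5*, *Psmb6*, *Psmc6*, *Psmd12*, *Psmd9* and *Psme4*) and in 12.4% of all promoters. For the ETS core these shares were 38.5% and 8.86%, for the GC box 56.4% and 35.7%, for CCAAT 33.3% and 37.4%, and for the gamma-activated sequence 5.13% and 8.30%. These shares are descriptions, since promoters were not matched for base composition and the units differ. The proteasome shares count genes, while the background shares count promoters. A proteasome gene with several starts therefore had more chances to hold a motif than a single promoter, which favors higher proteasome shares. The sites of the activators and of 2 catalytic subunits are shown with 8 bases on each side, at chr14:55578495-55578520 (*Psme1*, plus strand), chr11:30771760-30771784 (*Psme4*, plus strand), chr14:54618026-54618050 (*Psmb5*, minus strand) and chr11:70525340-70525364 (*Psmb6*, plus strand).
Psme1, interferon element: agctgtgcTTTCGCTTTCccttcccg
Psme4, antioxidant element: ctgcggctGCAGCGTCAccagaaga
Psmb5, antioxidant element: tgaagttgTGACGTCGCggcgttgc
Psmb6, antioxidant element: aaagagagTGACGGAGCgctttacg
Counted from the RefSeq start, the element of *Psme1* lay 10 to 19 bases into the transcribed part. That of *Psme4* spanned the start (-7 to 2). In the GENCODE annotation these 2 genes start further upstream, at chr14:55578123 and chr11:30771726, so both elements lie inside the gene there.

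To ask whether the complex moves as a whole when microglia respond to the lesion, normalized counts were compared between CNV d3 and control with limma on log2(normalized count + 1), and p-values were Benjamini-Hochberg adjusted over all 27299 genes. Of the 47 genes, 7 were higher in CNV d3 (14.9%), 1 was lower (2.13%) and 39 did not pass an adjusted p of 0.05. Over all genes tested, 8.29% were higher and 4.57% lower. Among protein-coding genes with a mean of at least 100 normalized counts, a level that 45 of the 47 genes had, 15.6% were higher and 9.93% lower, so the share of proteasome genes that rose was near the background. The higher genes were *Psme1*, *Psme2*, *Psme3* and *Psme4* among the activators, *Psma1* and *Psmb1* in the core and *Psmd8* in the lid, while *Psmd7* in the lid was lower. With the thresholds of the study for a DEG (absolute log2FC above 1.5, adjusted p below 0.05), 0 of the 47 genes increased and 0 decreased by limma, edgeR or DESeq2, against 3.91% and 1.07% of all genes by limma. At an unadjusted p below 0.05, limma found 18 of the 47 genes (38.3%), beside 25.2% of all genes and 43.4% of protein-coding genes with a mean of at least 100. The median log2FC of the 47 genes was 0.18, beside 0.15 over all genes and 0.07 over protein-coding genes with a mean of at least 100.

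**Figure D1:**
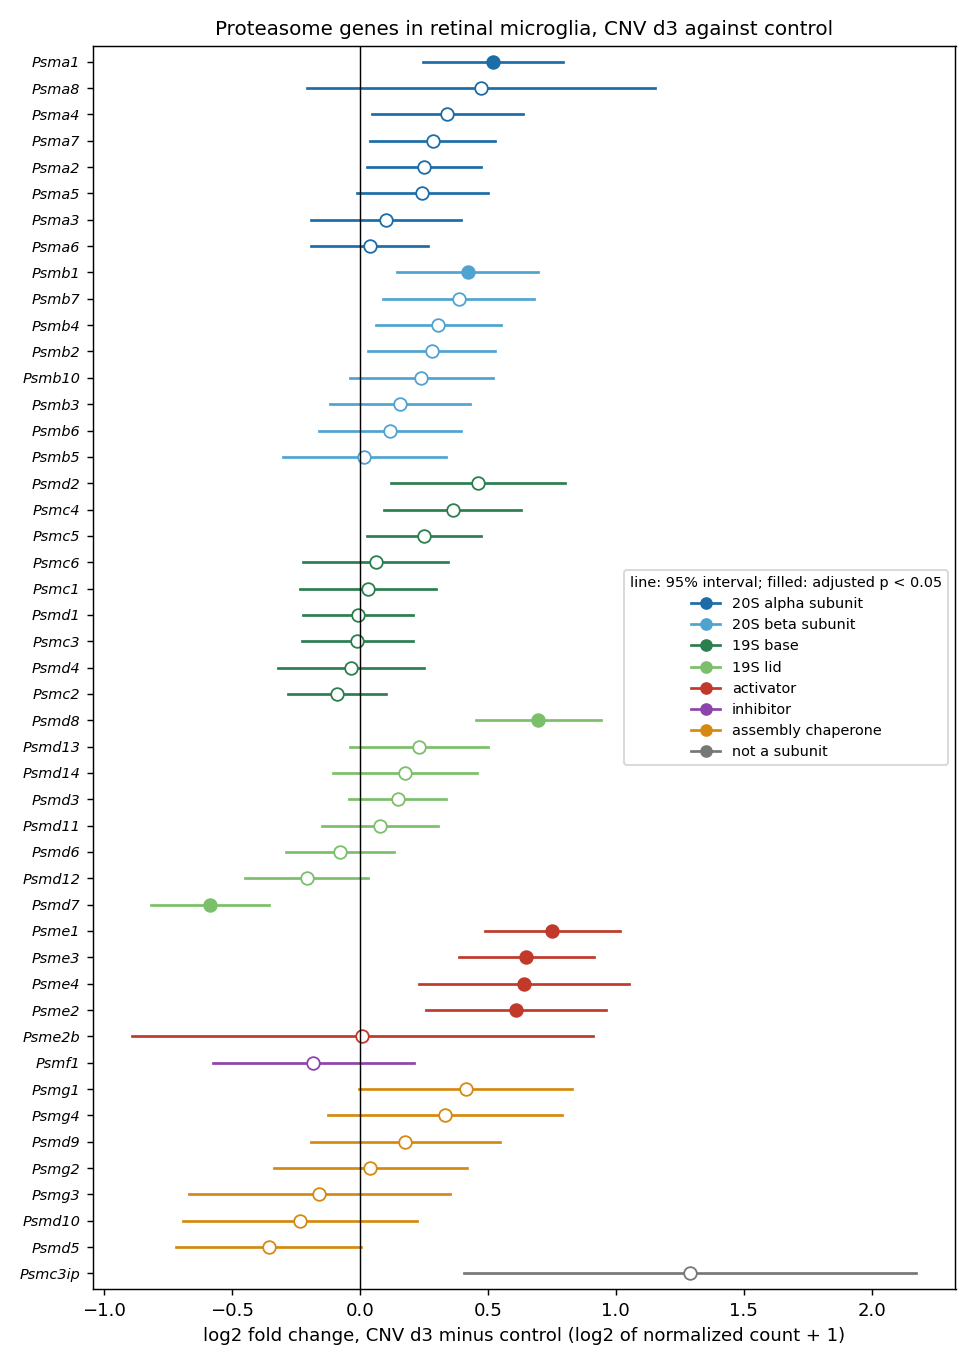
The log2 fold change (CNV d3 minus control, x axis, log2 of normalized count + 1) of each of the 47 genes is plotted by class, with its 95% interval from limma. Filled circles have an adjusted p below 0.05: 4 activators, *Psma1*, *Psmb1* and *Psmd8* lie right of 0 and *Psmd7* lies left of it.

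Marker lists of retinal and immune cells were read in the same samples, since in bulk RNA fewer cells of a type and less RNA per cell cannot be told apart. Of 8 microglia markers, 6 were lower in CNV d3, and their summed level was 641510 to 968890 normalized counts in CNV d3 and 1173700 to 1334200 in control. All 8 cell cycle genes were higher, with summed levels of 8347 to 20419 and 88.3 to 1238. Of 8 monocyte markers, *Ccr2*, *Plac8*, *F10* and *Ly6c2* were the 4 higher ones, and the 8 summed to 386 to 2683 and 35.1 to 293. *F10* and *Ly6c2* had means of 16.85 and 12.9 in CNV d3 and were at 0 in all controls. *Chil3* and *Ly6c1* were also at 0 in all controls and did not pass. Of 6 dendritic cell markers, 3 were higher (245 to 1262 and 23.8 to 514, *Cd209a* at 0 in all controls). Of 7 Mueller glia markers, *Apoe*, *Vim* and *Clu* were the 3 higher ones, and *Slc1a3* was the 1 lower (log2FC -0.68). *Glul* (log2FC -0.27), *Rlbp1* (0.97) and *Aqp4* (2.31) did not pass. The 7 summed to 59484 to 102410 and 19666 to 41410, mostly *Apoe*. The paper describes *Apoe* as upregulated in the microglia after laser. The sum is therefore not specific to Mueller glia. No photoreceptor marker of 8 passed (604 to 13033 and 774 to 6996), nor any of 5 neutrophil markers (4939 to 10768 and 9047 to 11561, almost all *Csf3r*, with *S100a9*, *Camp* and *Ngp* at 0 in all controls) or of 5 T cell markers (0.739 to 25.9 and 0 to 14.1). The part of these shifts in the proteasome results was not tested. The control samples had fewer reads on genes (10963178 to 22335233) than the CNV d3 samples (23532260 to 29523018). In the labels all 6 control samples and CNV d3 4 came in 2 parts, and the other 5 CNV d3 samples in 1. Within the samples in 2 parts the laser is therefore represented by CNV d3 4 alone. The paper's methods differ from the labels and describe 2 alignment files for every sample, 1 from each flow cell, which were merged. The labels do not state what a part is. With the number of parts as a covariate, an alternative chosen after the data were seen, limma called 0 of the 47 genes higher and 0 lower, and 908 higher and 61 lower over all genes. In that fit 3 of the 47 genes had an unadjusted p below 0.05: *Psme1* (log2FC 0.59 ± 0.24, SE), *Psme3* (0.54 ± 0.23) and *Psmd7* (-0.68 ± 0.19), with adjusted p of 0.304, 0.339 and 0.0943, and *Psmd8* had 0.33 ± 0.17.

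The activators were the class with the largest share of higher genes, 4 of 5 (80%), beside 15.6% of protein-coding genes with a mean of at least 100. Their median log2FC was 0.64, and 0.65 without *Psme2b*, which had almost no reads. *Psme1* (ENSMUSG00000022216, chr14:55578123-55581529) encodes PA28 alpha and had 2584 normalized counts in the lowest, 3335 in the median and 4488 in the highest control sample. In CNV d3 these values were 4969, 5755 and 6579. No CNV d3 sample overlapped a control sample, and the mean rose from 3445 ± 647 to 5752 ± 664 (SD, n = 6 each). The log2FC was 0.75 ± 0.12 (SE), a fold of 1.685, with an adjusted p of 0.000954 by limma. *Psme2*, the PA28 beta gene on the other strand of the same stretch of chromosome 14 (chr14:55587441-55591113), ranged from 2374 over a median of 2883 to 4809 in control and from 4036 over 4537 to 5886 in CNV d3. Control 3 alone lay within the CNV d3 range. Its log2FC of 0.61 ± 0.17 (SE) had an adjusted p of 0.0235 by limma, and the call held in 4 of 12 fits that each left out 1 sample (without control 3, control 4, CNV d3 4 or CNV d3 5; adjusted p 0.00484 to 0.0869 over the 12 fits).

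*Psme3* encodes PA28 gamma, which forms a ring of its own kind in the nucleus. It lies at chr11:101316213-101323537 and measured 1298, 1743 and 2209 normalized counts in the lowest, median and highest control sample. The CNV d3 samples measured 2389, 2667 and 3100, so the groups did not overlap. Its log2FC was 0.65 ± 0.12 (SE, adjusted p = 0.00259 by limma). *Psme4* (chr11:30771726-30880361), the gene of the large monomeric activator PA200, was the least abundant of the 4, with 419, 536 and 905 in control and 725, 894 and 1204 in CNV d3. Control 2 was above 3 of the CNV d3 samples. Its log2FC of 0.64 ± 0.19 (SE) had an adjusted p of 0.0387 by limma and kept its call in 3 of 12 fits without 1 sample (without control 1, control 2 or CNV d3 1; 0.0118 to 0.0995 over the 12). *Psme2b*, an intronless copy of *Psme2*, had at most 3.22 normalized counts in any sample and 0 in 4 control and 3 CNV d3 samples, so no fold is given.

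**Figure D2:**
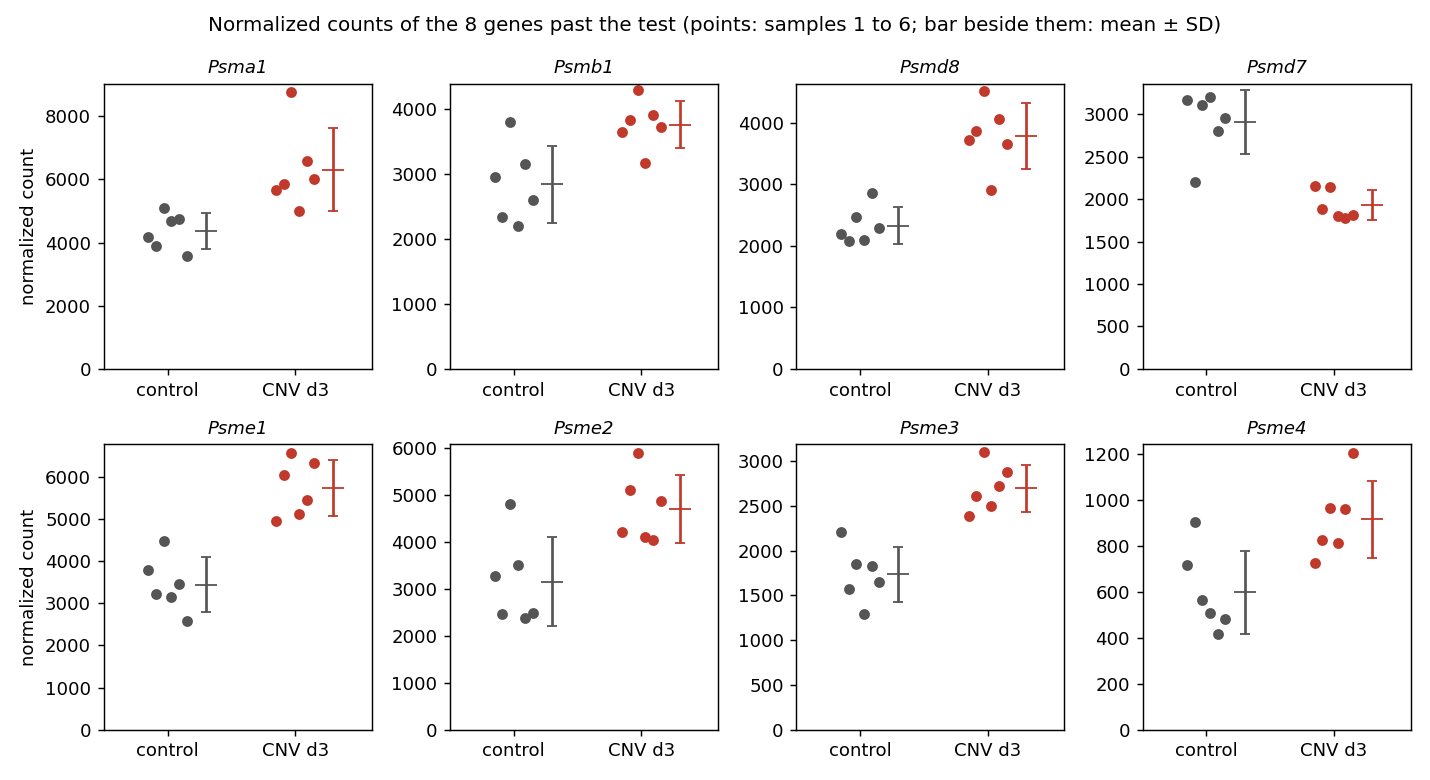
Normalized counts (y axis, from 0) of the 8 genes with an adjusted p below 0.05 are plotted for the 6 control and 6 CNV d3 samples, with mean ± SD beside the points. The groups are apart in *Psme1*, *Psme3*, *Psmd8* and *Psmd7*, and 1 control sample reaches into the CNV d3 range in each of the others.

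Since PA28 alpha and beta are built into 1 ring, the ratio of their transcripts was compared within each sample. The log2 ratio of *Psme2* to *Psme1* was -0.16 ± 0.27 in control and -0.30 ± 0.10 in CNV d3 (SD, n = 6 each). The difference of -0.14 ± 0.12 (SE) did not pass (two-sided exact permutation test over 924 labelings, p = 0.26, adjusted over 2 ratios 0.364, where the smallest possible p is 0.00216). The ratios of the controls ranged from -0.54 to 0.16 and those of CNV d3 from -0.44 to -0.16. The inhibitor *Psmf1* (PI31) ranged from 605 over 909 to 1339 in control and from 733 over 794 to 831 in CNV d3. The log2FC was -0.18 ± 0.18 (SE) with an adjusted p of 0.571 by limma, and the coefficient of variation was 31.5% in control and 4.60% in CNV d3.

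In the 20S core, all 16 genes had a log2FC above 0, with a median of 0.27, but 2 passed the test (12.5%). The fold changes of all protein-coding genes with a mean of at least 100 were above 0 in 55.6%. *Psma1* (ENSMUSG00000030751, chr7:114264606-114276118), an alpha subunit of the gate, measured 3589, 4424 and 5092 normalized counts in the lowest, median and highest control and 5001, 5930 and 8770 in CNV d3. The groups overlapped by control 3 and CNV d3 4 alone, and CNV d3 3 was the highest sample. The log2FC of 0.52 ± 0.13 (SE) had an adjusted p of 0.0138 by limma, and of 0.0622 by limma without its mean-variance trend. The call held in all 12 fits without 1 sample, with adjusted p from 0.0149 to 0.0475. *Psmb1*, a beta subunit without proteolytic activity, went from 2197, 2776 and 3804 to 3164, 3776 and 4282. Its log2FC of 0.42 ± 0.13 (SE, adjusted p = 0.0424 by limma) held in 2 of 12 such fits, without control 3 or CNV d3 4 (0.0097 to 0.109 over the 12). The other 7 alpha genes had log2FC from 0.04 (*Psma6*, 3600 ± 355 and 3716 ± 567 normalized counts, adjusted p = 0.818 by limma) to 0.47 (*Psma8*). *Psma8*, a testis variant of the alpha ring, was low, with 53.6 to 216 in control and 128 to 246 in CNV d3.

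None of the 4 catalytic genes passed the test. *Psmb5*, with the chymotrypsin-like site, measured 490, 520 and 671 in control and 427, 530 and 663 in CNV d3 (lowest, median, highest). This was the smallest change in the beta ring, with a log2FC of 0.02 ± 0.15 (SE) and a 95% interval from -0.30 to 0.34. Of the exon bases of *Psmb5*, 12.1% overlap *Mir686* on the same strand. *Psmb6*, with the caspase-like site, had 2267, 2500 and 3711 in control and 2228, 2849 and 3343 in CNV d3 (log2FC 0.12 ± 0.13, SE, interval -0.16 to 0.40). In control samples, the highest value of *Psmb5* and of *Psmb6* was that of control 3. *Psmb7*, with the trypsin-like site, had 708, 807 and 969 in control and 853, 1038 and 1458 in CNV d3. Its log2FC of 0.39 ± 0.14 (SE) missed the threshold by limma (adjusted p = 0.0846) and passed by DESeq2 on recovered reads (0.0167), and 405 exon bases of *Psmb7* (11.8%) overlap *Nek6* on the other strand, where reads that overlap both genes are left out by default counting. *Psmb10*, its immunoproteasome counterpart, had 1587, 1779 and 2260 in control and 1758, 2166 and 2791 in CNV d3 (log2FC 0.24 ± 0.13, SE, adjusted p = 0.277 by limma).

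The transcripts of *Psmb10* and *Psmb7* were compared as a log2 ratio in each sample. Exchange of the protein subunits in the core was not measured. The ratio was 1.17 ± 0.27 in control and 1.02 ± 0.25 in CNV d3 (SD, n = 6 each), with ranges of 0.84 to 1.49 and 0.63 to 1.25 that overlapped widely. The difference of -0.15 ± 0.15 (SE, two-sided exact permutation test, p = 0.364, adjusted over 2 ratios 0.364) did not pass either. The other 2 immunoproteasome genes were set beside it. *Psmb9* rose from 1514 ± 338 to 2126 ± 380 (SD, n = 6 each, log2FC 0.50, adjusted p = 0.0477 by limma), a call that held in 2 of 12 fits without 1 sample (without control 3 or CNV d3 4), and *Psmb8* went from 3287 to 3809 (log2FC 0.22, adjusted p = 0.293).

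The 19S cap had a median log2FC of 0.06, with 10 of 17 genes above 0 and 1 gene called in each direction (5.88% each). In the lid, *Psmd8* and *Psmd7* moved in opposite directions. *Psmd8* (ENSMUSG00000030591, chr7:29174188-29180701), a lid scaffold subunit, measured 2075, 2242 and 2858 normalized counts in the lowest, median and highest control and 2904, 3803 and 4516 in CNV d3. Every CNV d3 sample was above every control. The log2FC was 0.70 ± 0.12 (SE), a fold of 1.62, with an adjusted p of 0.000983 by limma. *Psmd7* (ENSMUSG00000039067, chr8:107580381-107588464) encodes the partner of the deubiquitinase *Psmd14* and measured 2206, 3034 and 3202 in control and 1782, 1849 and 2155 in CNV d3. Every CNV d3 sample was below every control, of which control 2 was the nearest. The log2FC was -0.59 ± 0.11 (SE, adjusted p = 0.00215 by limma). Both calls held in every fit that left out 1 sample. Groups that did not overlap were found for 3 genes of the 47 that were higher (*Psmd8*, *Psme1* and *Psme3*) and 1 that was lower (*Psmd7*), beside 9.85% and 5.76% of protein-coding genes with a mean of at least 100.

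*Psmd14*, whose product cuts ubiquitin from the substrate, measured 1353, 1817 and 2125 in control and 1820, 1900 and 2521 in CNV d3 (log2FC 0.18 ± 0.13, SE, adjusted p = 0.447 by limma). The log2 ratio of *Psmd14* to its partner *Psmd7*, chosen after the values were seen and therefore given without a test, was between -1.24 and -0.41 in control and between -0.24 and 0.24 in CNV d3. The other 5 lid genes had log2FC from -0.21 (*Psmd12*) to 0.23 (*Psmd13*), and the smallest was that of *Psmd6* with -0.08 ± 0.10 (SE, 2393 ± 267 and 2262 ± 174 normalized counts).

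No gene of the base passed. Its 6 ATPase genes *Psmc1* to *Psmc6* had log2FC from -0.09 (*Psmc2*) to 0.36 (*Psmc4*, adjusted p = 0.0735 by limma). *Psmd2*, a docking site for ubiquitin shuttles, measured 2744, 3581 and 5293 in control and 4350, 5416 and 6212 in CNV d3. The controls fell into 4 samples from 2744 to 3620 and 2 samples (control 5 and 6) at 5293 and 5279, and its log2FC of 0.46 ± 0.16 (SE) had an adjusted p of 0.0733 by limma. *Psmd4*, a ubiquitin receptor, went from 1860, 2127 and 3038 to 1934, 2034 and 2826 (log2FC -0.04 ± 0.13, SE). The smallest change was that of *Psmd1*, with 3576 ± 255 and 3582 ± 488 normalized counts (log2FC -0.01 ± 0.10, SE, interval -0.22 to 0.21).

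None of the 7 assembly chaperones passed, and 4 had a log2FC above 0. For the chaperones of the core, the log2FC (each with its SE) was 0.41 ± 0.19 for *Psmg1*, 0.04 ± 0.18 for *Psmg2*, -0.16 ± 0.24 for *Psmg3* and 0.33 ± 0.21 for *Psmg4*. For those of the cap base, it was -0.35 ± 0.17 for *Psmd5*, 0.18 ± 0.17 for *Psmd9* and -0.23 ± 0.21 for *Psmd10*. Of the exon bases of *Psmd9*, 25.5% overlap *Gm26745* on the other strand, the largest share among the 13 proteasome genes whose exons overlap another gene. *Psmd5* had 1281, 1808 and 2567 normalized counts in the lowest, median and highest control and 1261, 1422 and 1518 in CNV d3. *Psmg1* had 272, 437 and 587 in control and 472, 537 and 684 in CNV d3, and in both genes the groups overlapped. The spread was wider in the control samples, where the median coefficient of variation of the 7 genes was 28.0%, against 12.5% in CNV d3. Over protein-coding genes with a mean of at least 100 these medians were 26.2% and 16.0%. *Psmc3ip*, the recombination factor, had 20.1 to 79.2 in control and 68.9 to 161 in CNV d3. Its log2FC of 1.29 ± 0.41 (SE) missed the threshold by limma (adjusted p = 0.0536) and passed by DESeq2 on recovered reads (0.00664), and 21.2% of its exon bases overlap *Mlx* on the other strand.

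**Figure D3:**
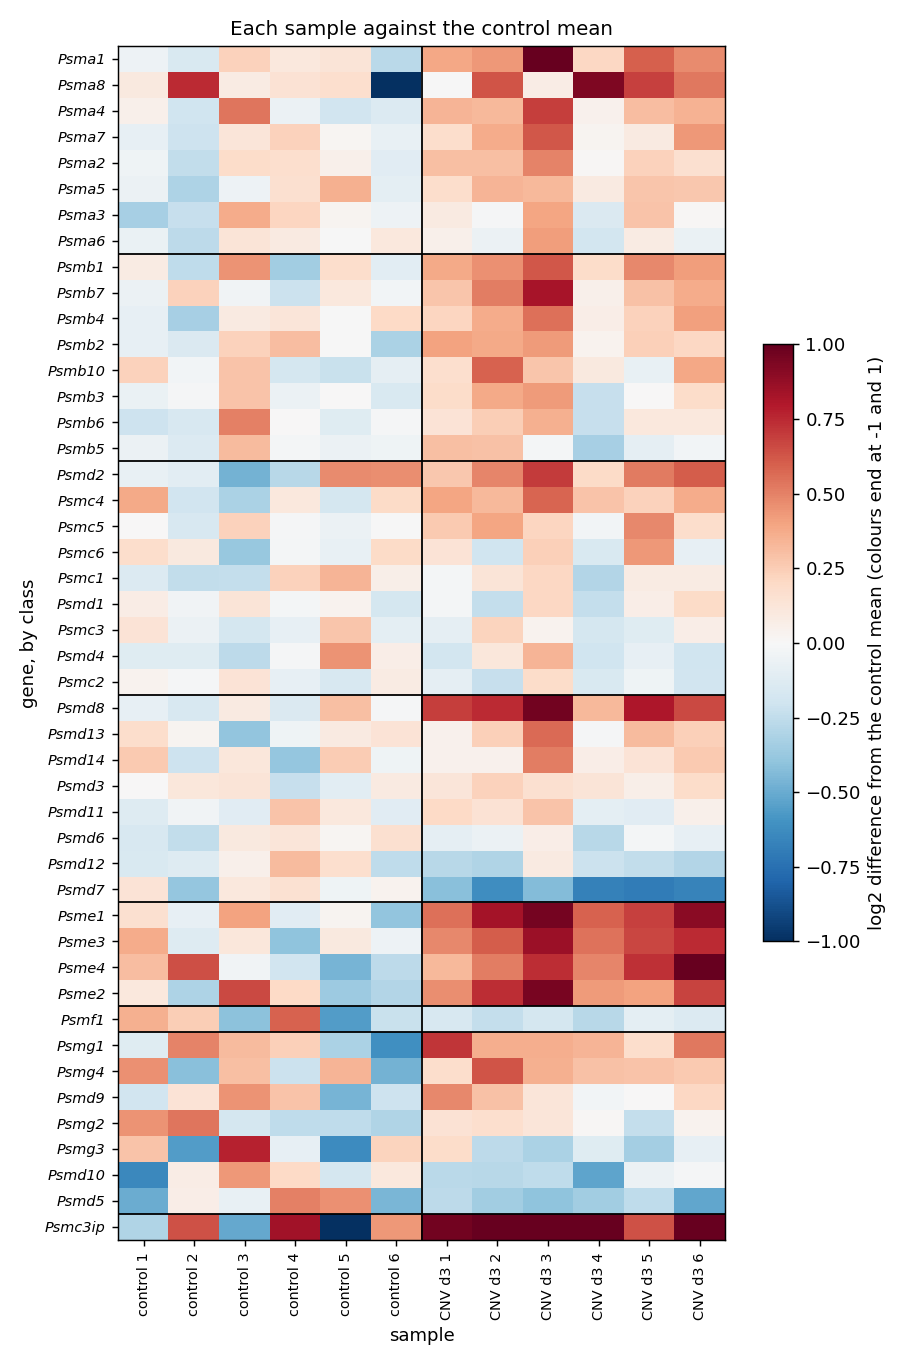
Each cell shows 1 gene (rows, by class, without *Psme2b*) in 1 sample (columns) as the log2 difference from the control mean, on a colour scale that ends at -1 and 1. The activator rows and *Psmd8* are red in all 6 CNV d3 samples and *Psmd7* is blue, and CNV d3 3 is the darkest red column in the core.

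The samples of CNV d3 differed in their proteasome level. CNV d3 3 had the highest value of its group in 27 of 46 genes (58.7%, without *Psme2b*), while it was highest in 21.8% of protein-coding genes with a mean of at least 100. CNV d3 4, the lasered sample in 2 parts, was the lowest in 25 of 46 genes (54.3%, beside 19.2%). The median log2 difference of the 46 genes from the control mean was 0.35 in CNV d3 3, 0.01 in CNV d3 4 and between 0.16 and 0.30 in the other 4. In control, sample 3 was highest in 19 of 46 genes (41.3%, beside 23.1%), with a median difference of 0.12. Without CNV d3 3, 4 genes stayed higher (*Psma1*, *Psmd8*, *Psme1* and *Psme3*), and without CNV d3 4, 9 genes were higher, among them 4 of the core, while *Psmd7* was the only lower gene in both fits.

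Levels between genes were compared as mean normalized count per kb of exon in the GENCODE annotation, which counts the exons of all transcripts of a gene. In control, the median level was 824 for the alpha genes, 761 for the beta genes, 803 for the base, 699 for the lid, 588 for the activators and 260 for the assembly chaperones. *Psma6* was the highest with 2917, and *Psmb2* followed with 2212. Per kb, the level of *Psmb10* was 1097 and that of *Psmb7* 242 in control, and 1299 and 319 in CNV d3. This gap depends on the annotated exon lengths, 1705 bases for *Psmb10* and 3421 for *Psmb7*. Without division by length, their control means were 1870 and 828. *Psme1* and *Psme2* had similar levels per kb, 1559 and 1786 in control and 2604 and 2664 in CNV d3. *Psme3* stood at 588 and 915, and *Psme4* at 71.5 and 109. Processed pseudogenes of *Psma5*, *Psmb6* and *Psmb7* in the table had group means of at most 3.20 normalized counts.

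**Figure D4:**
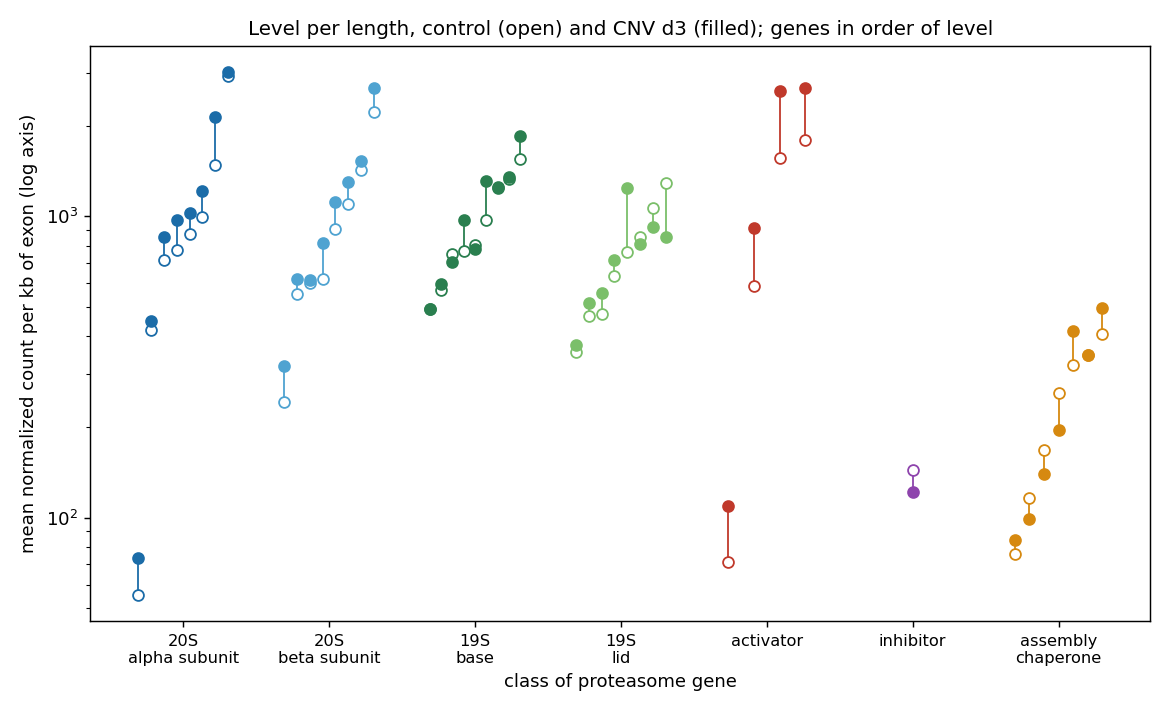
Mean normalized count per kb of exon (log axis) in control (open) and CNV d3 (filled) is plotted for each gene, in order of its control level within each class, without *Psme2b* and *Psmc3ip*. The 4 activators shift upward from different levels (71.5 to 1786 per kb in control), and in the lid the line of *Psmd8* points up and that of *Psmd7* down.

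Of 30 further genes of the ubiquitin-proteasome pathway in the table, 6 were higher (20%) and 4 were lower (13.3%) in CNV d3 by limma. These shares were near those of protein-coding genes with a mean of at least 100 (15.6% and 9.93%), a level that 29 of the 30 had. The median log2FC was 0.08. The higher genes were *Psmb9*, *Rps27a* and *Uba1* (a ubiquitin precursor and the main ubiquitin-activating enzyme, log2FC 0.83 and 0.69), *Ecpas* (0.59), a scaffold that binds the proteasome, *Sem1* (0.49, adjusted p = 0.0324), a small lid subunit, and *Pomp* (0.43, adjusted p = 0.00898), a chaperone of core assembly. Among the lower genes were *Adrm1* (from 1277 to 814, log2FC -0.63, adjusted p = 0.00504), a ubiquitin receptor of the cap, *Akirin2* (-0.61), which carries proteasomes into the nucleus, and *Ngly1* (-0.56, adjusted p = 0.0466), which deglycosylates the factor encoded by *Nfe2l1*. *Nfe2l1* itself, the transcription factor that induces proteasome genes, went from 1352 to 1954 with groups that did not overlap, but missed the threshold (log2FC 0.60 ± 0.21, SE, adjusted p = 0.0724 by limma). The calls of *Sem1* and *Ngly1* held in 3 and 2 of the 12 fits without 1 sample (*Sem1* without control 3, CNV d3 1 or CNV d3 4, *Ngly1* without control 2 or CNV d3 5), and *Nfe2l1* gained one without control 4 (adjusted p = 0.00716 by limma). Within the cap, *Adrm1* and *Psmd7* were lower while *Psmd8* and *Sem1* were higher.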

How the data were processed

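RNA of sorted retinal microglia was made into cDNA by template switching and PCR, fragmented with a transposase and sequenced as single reads. The authors used FastQC 0.72, STAR 2.7.2b with the GRCm38.p6 genome, featureCounts 1.6.4 at default parameters (no strand, no reads in exons of more than 1 gene) and, in R 3.5.3, DESeq2 1.22.2, as the submitters' processing notes and the methods give them. The deposited values are a signal per gene and sample, the read count divided by the DESeq2 size factor, called normalized count here. The table also holds the group means, log2 fold changes and adjusted p-values of the authors, which were not used.

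Dividing by the smallest value of a sample gave whole numbers for 100% of values in all 12 samples (tolerance 0.01), and these are the recovered reads. The main test was limma 3.58.1 in R 4.3.3 with a mean-variance trend on log2(normalized count + 1), which understates the change of low genes, over 27299 genes with no further filter. A call needed a Benjamini-Hochberg adjusted p below 0.05. Intervals are 95% intervals of limma. Two-sided exact permutation tests were used for the ratios of 2 genes. Alternatives were edgeR 4.0.16 and DESeq2 1.42.0 on the recovered reads, scaling to the total reads, TMM scaling, pseudocounts of 0.5 and 5, a minimum mean of 10, limma without the trend, thinning to the shallowest sample, the replicate number as a block, and leaving out each sample. The number of parts as a covariate and the alternatives for the pathway genes were added after the data were seen. The fits were tested on simulated data.

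A sample listed in 2 parts counted as 1. Depth was 10963178 to 29523018 reads on genes, and the read counts of the 46 genes other than *Psme2b* were at least 20 in each sample. No molecular identifiers marked the cDNA before PCR, so read counts are not counts of molecules. Gene positions and exon lengths came from GENCODE release 21 for mouse, on the GRCm38 build as is release 25 of the authors. The genes named with values are the catalytic subunits, the activators and the inhibitor, *Psmd2*, *Psmd4* and *Psmd14*, the assembly chaperones, *Psmc3ip*, the up to 3 largest calls and the smallest change of each class, and of the further pathway genes the calls (1 of them is not reported here), *Adrm1*, *Sem1*, *Pomp*, *Nfe2l1*, *Psmb8* and *Psmb9*. Other genes are named for a range or a count and were chosen after their values were seen. The members and the lists were chosen with earlier results of these data known.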

Additional observations from a re-analysis of the deposited data

Results flagged for a closer look

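Single samples stood apart from the other 5 of their group in 7 of 98 groups examined. A chance rate of about 1 in 20 holds for independent groups. These groups are genes read in the same samples, so the rates were not compared. In control, replicate 3 was far above the rest in *Psma4* (2612 normalized counts, next highest 1867), *Psmb3* (1546 and 1269), *Psmb5* (671 and 531) and *Psmb6* (3711 and 2628), all genes of the core. Control 1 was highest in *Psme2b* with 3.22 normalized counts (next highest 1.126), a gene with at most 3 reads in a sample. CNV d3 3 was far above its group in *Psmd12* (2978 and 2418), and CNV d3 2 in *Psmg4* (337 and 279). None of these 7 genes passed the test between the groups.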

How the results depend on the processing

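*Psme1*, *Psme3*, *Psmd8* and *Psmd7* kept their direction and their call under 10 alternatives (all but the parts covariate described here) and in all 12 fits without 1 sample, with log2FC of 0.67 to 0.83, 0.57 to 0.72, 0.65 to 0.77 and -0.66 to -0.56 over those 12. The number of higher genes (7) was 12 by DESeq2, 11 with a minimum mean of 10 and 4 without the trend of limma, and 4 to 9 without 1 sample. The core count (2) was 4 by DESeq2, 0 without the trend, 1 after thinning and 1 to 4 without 1 sample. The cap count (1) was 3 by DESeq2, 3 with a minimum mean of 10 and 1 to 2 without 1 sample, and the activator count (4) was 2 without the trend and 2 to 3 without 1 sample, so that no fit without 1 sample called all 4 activators. The number of lower genes stayed 1 in these fits. With the number of parts as a covariate, chosen after the data were seen, the counts of higher, lower, core, cap and activator genes were each 0, and the laser was represented there by CNV d3 4 alone against the controls. Over all genes, DESeq2 called 2493 higher and 2170 lower, limma 2264 and 1247. Over the other alternatives, 34 values of the 27 named proteasome genes lost their call and 14 gained one, and of 11 named pathway genes 39 lost and 3 gained one. With the parts covariate 8 and 9 genes lost their call. No value with a call in either fit changed sign. The ratios kept their sign, at -0.21 to -0.07 for *Psmb10* to *Psmb7* and -0.22 to -0.08 for *Psme2* to *Psme1* without 1 sample. The cause of these shifts was not tested.

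The labels number the samples of both groups from 1 to 6 without naming a pairing. Deviations of equally numbered samples correlated between -0.05 and 0.07, and 1 of 6 samples correlated best with its own number, so the numbers were not taken as pairs. With the replicate block, 6 genes were higher and 1 was lower, 3 of the activators among them, and the ratio differences of -0.15 and -0.14 had adjusted p of 0.5 and 0.438 (two-sided exact sign-flip permutation over 6 pairs). For *Psme2b*, which had at most 3 reads in a sample, no difference was detectable, and the cause of its low counts was not tested.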
